A study of Homo sapiens with 2 samples.

Results

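The genes described here encode proteins of the spliceosome and regulators of splicing, measured in DLD-1, an established human colorectal adenocarcinoma line. They were chosen by gene symbol, with earlier results of these data known. The choice took the SRSF, HNRNP, SF3A, SF3B, SNRP, PRPF and U2AF families with SF1, ESS2 and LSM1 to LSM8, and found 78 of the 17709 named probe sets and 77 of the 17687 named genes. In the siYY1 group, cells received the small interfering RNA (siRNA) Hs_YY1_1 against YY1, a zinc finger transcription factor. In the siControl group, they received AllStars negative control siRNA. Both siRNAs were used at 5 nmol/L with Lipofectamine RNAiMAX, and the 2 groups share the line, the medium and the harvest of total RNA after 3 days. Knockdown relied on a single siRNA sequence, and each group was 1 array. Without replicates, no difference below carries an error or a p-value, and each compares 2 arrays rather than 2 conditions. The level of YY1 itself was not analysed here, so the group names rest on the labels.

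The arrays gave 1 value per probe set, taken as log2 from their range of 2.51 to 17.9. The pair was quantile normalized, and every level below is on that log2 scale. Levels are compared only within a gene, since probe sets differ in brightness. A gene entered the comparison when it was protein-coding and its brighter array reached 7.50, the median of that value over named genes, which left 8747 genes. Of the 10 colorectal epithelial markers, 9 were named and 8 reached that minimum. LGALS4, a lectin of intestinal epithelium, was dim at 4.50 in siYY1 and 4.53 in siControl. Of the markers of other cell types, COL1A2 among 4 fibroblast genes and CD14 and CD79A among 4 leukocyte genes reached it. The 4 endothelial markers were all below it.

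The spliceosome is assembled anew on each intron from small nuclear ribonucleoproteins (snRNPs), which carry short RNAs inside a ring of Sm or LSm proteins. The U1 snRNP marks the start of the intron, while SF1, U2AF and the U2 snRNP with its SF3A and SF3B complexes mark the branch point and the end. The U4/U6.U5 tri-snRNP then joins, and factors named PRPF help rearrange it into the catalytic form. SR proteins and hnRNPs bind the transcript and shift the choice of splice sites, often in opposite directions. YY1 is known to bind near the starts of many genes of basic cell functions.

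Most of these genes had nearly the same value on both arrays. Those that differed came from several complexes, though 3 of the 6 at least 2-fold lower were ESS2 or PRPF genes. Of the 77 genes, 70 were compared. All 70 were above the minimum on both arrays, and the lowest value of any was 7.72, for HNRNPCL1 in siYY1 (8.01 in siControl). At least 2-fold lower in siYY1 were 6 of the 70 (8.57%), beside 9.37% of all genes compared, and at least 2-fold higher were 3 (4.29%), beside 7.92%. These shares are near the background or below it. Within 1.5-fold of each other on the 2 arrays were 52 of the 70 (74.3%), beside 58.8% of all genes. The differences, siYY1 minus siControl in log2 units, had an SD of 0.63 across the 70 genes and 0.75 across all genes compared.

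The balance of directions leaned below 0. The median difference was -0.15, beside -0.01 over all genes compared, and 46 of the 70 (65.7%) were below 0, beside 50.4%. The values as deposited, without quantile normalization, moved the median of all genes by over 0.1, to -0.13. In those values the splicing genes had a median of -0.30, with 56 of the 70 (80%) below 0, beside 56.8% of all genes. Set against the median of all genes, the splicing median was at -0.14 after quantile normalization and at -0.17 as deposited. Among all genes past 2-fold, 45.8% were higher in the main scaling, 33.4% as deposited and 26.0% after centring on medians. As deposited, 9 of the 70 splicing genes were at least 2-fold lower and 1 higher, beside 12.2% and 6.13% of all genes. After centring, 10 were lower and 0 higher, beside 14.3% and 5.03%. The lower counts were thus near the background in each of these scalings. At 1.5-fold in the main scaling, 13 of the 70 were lower and 5 higher, beside 21.8% and 19.4% of all genes. At 3-fold, 1 was lower and 0 higher, beside 2.44% and 1.89%.

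**Figure D1:**
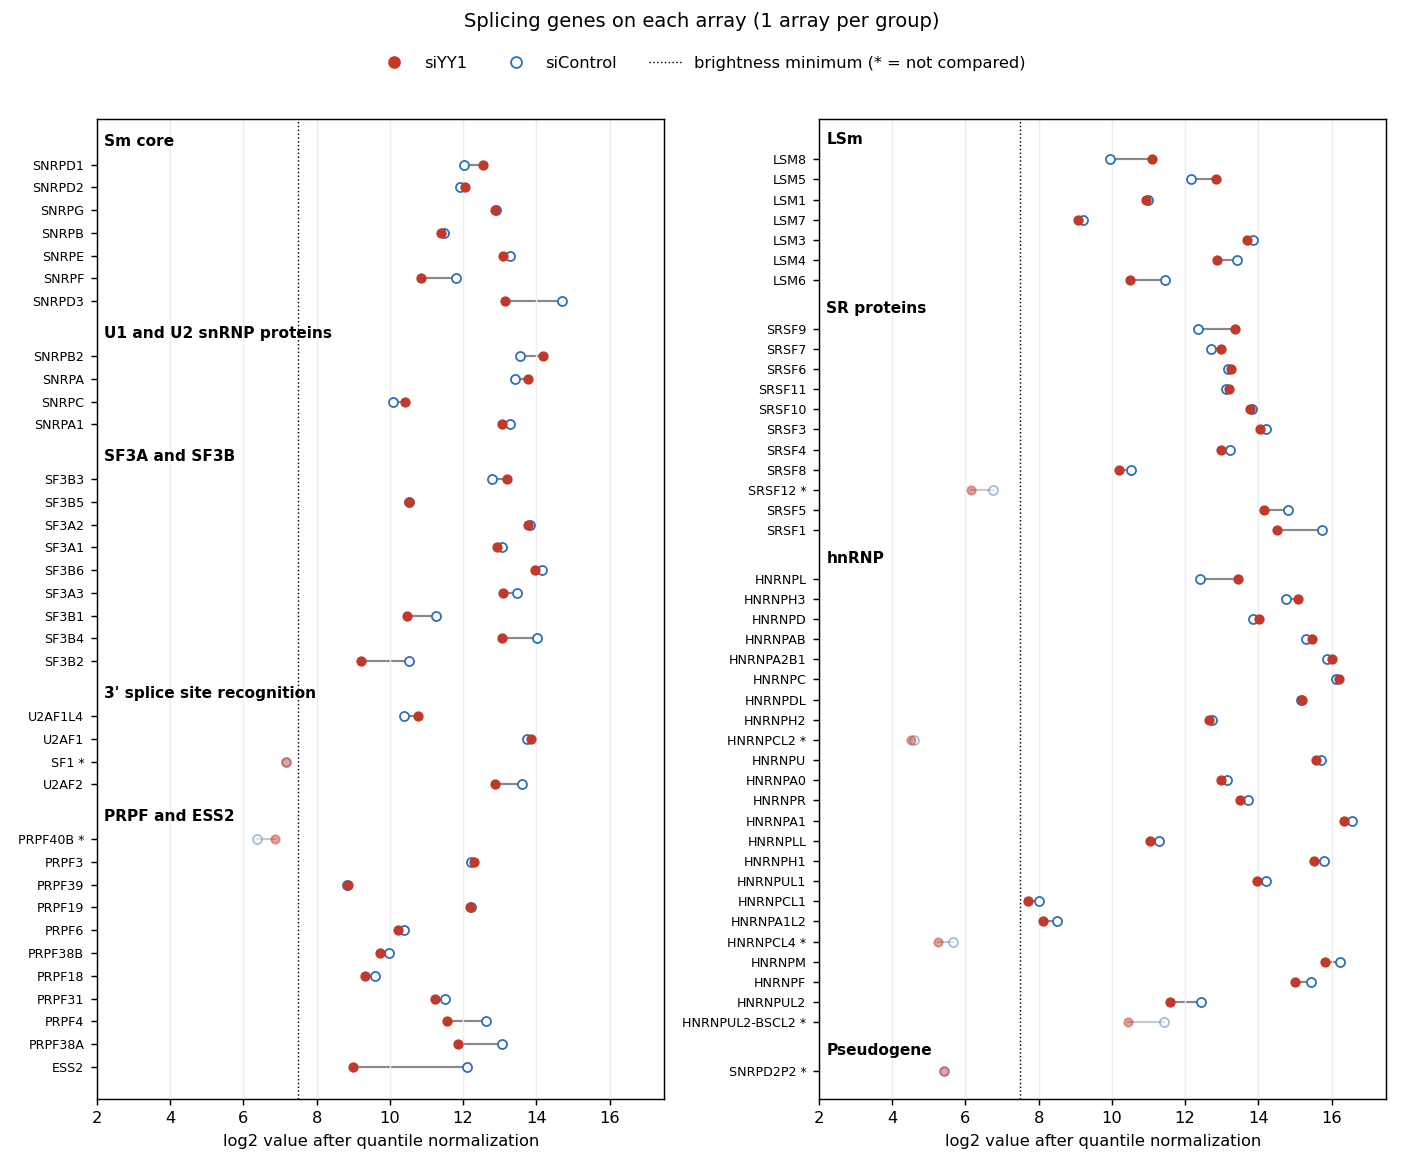
Log2 value of each of the 77 genes in siYY1 (filled) and siControl (open), grouped by role and sorted within each role by the difference, with 1 array per group. Most pairs of points touch, while ESS2 stands out at 9.01 in siYY1 and 12.1 in siControl. Genes marked with an asterisk were not compared.

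ESS2 had by far the widest gap among these genes. It encodes a nuclear protein found in the catalytic spliceosome (the C complex), and its gene lies in the region of chromosome 22 that is deleted in DiGeorge syndrome. Its level was 9.01 in siYY1 and 12.1 in siControl, a difference of -3.11 or 8.64-fold lower. Only 1 of the 8747 genes compared had a lower difference, so ESS2 ranked 2 from the bottom. It is named singly in the choice of genes, which was made with earlier results known, so this rank is a description only. Without ESS2, 5 of 69 genes (7.25%) were at least 2-fold lower. Across the 4 scalings its difference ran from -3.32 to -3.11.

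Promoters of 4 lower genes are shown because they differ in a feature related to YY1. The binding motif of YY1 holds the letters ATGG, and 2 forms of it were searched on both strands, AANATGG and a longer form in which CGG follows directly, so that each longer match holds a shorter one. The sequences run 5′ to 3′ on the gene's own strand, from 250 bases before to 50 after the start of the transcript, and come from RefSeq for GRCh38.p14. Capitals mark a match of the shorter form, which reads as CCATNTT where it lies on the opposite strand.
ESS2, chr22:19144602-19144901, minus strand: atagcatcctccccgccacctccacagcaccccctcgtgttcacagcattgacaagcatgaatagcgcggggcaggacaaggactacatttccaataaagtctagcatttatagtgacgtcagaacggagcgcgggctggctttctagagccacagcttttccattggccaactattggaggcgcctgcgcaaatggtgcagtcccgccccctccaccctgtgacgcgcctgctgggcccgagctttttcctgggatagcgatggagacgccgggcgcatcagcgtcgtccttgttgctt
SF3B2, chr11:66052114-66052413, plus strand: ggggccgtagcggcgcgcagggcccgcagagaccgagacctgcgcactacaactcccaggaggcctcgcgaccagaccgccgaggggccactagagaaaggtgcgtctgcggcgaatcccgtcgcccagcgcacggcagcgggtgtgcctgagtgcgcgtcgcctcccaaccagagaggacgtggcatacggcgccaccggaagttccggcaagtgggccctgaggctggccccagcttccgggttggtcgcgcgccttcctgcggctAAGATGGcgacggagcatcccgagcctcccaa
SRSF1, chr17:58007197-58007496, minus strand: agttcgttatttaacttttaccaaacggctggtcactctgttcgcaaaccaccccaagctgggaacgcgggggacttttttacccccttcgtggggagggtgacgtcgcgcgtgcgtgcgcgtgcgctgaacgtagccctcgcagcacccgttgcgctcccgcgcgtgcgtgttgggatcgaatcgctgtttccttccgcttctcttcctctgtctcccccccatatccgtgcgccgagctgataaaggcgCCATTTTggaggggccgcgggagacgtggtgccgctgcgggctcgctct
PRPF38A, chr1:52404352-52404651, plus strand: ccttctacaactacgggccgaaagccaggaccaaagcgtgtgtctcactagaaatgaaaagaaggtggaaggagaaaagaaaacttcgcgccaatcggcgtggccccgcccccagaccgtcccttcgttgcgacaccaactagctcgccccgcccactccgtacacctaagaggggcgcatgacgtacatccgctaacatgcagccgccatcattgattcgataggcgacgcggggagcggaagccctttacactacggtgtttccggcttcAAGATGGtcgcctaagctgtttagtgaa
The matches began at bases 19, 2 and 23 after the start in SF3B2, SRSF1 and PRPF38A, the match in SRSF1 lying on the opposite strand. ESS2 held neither form in this window, though the letters ATGG alone do occur in it. Of the other 5 genes past 2-fold, SNRPD3, PRPF4, LSM8, HNRNPL and SRSF9, none held a match in any promoter of the table.

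Promoter sequence was at hand for 69 of the 77 genes and for 63 of the 70 compared. AANATGG was found for 19 of these 63 (30.2%), beside 21.8% of 7386 compared genes with a promoter and 18.6% of 27305 genes in the whole table. The longer form was found for 4 of the 63 (6.35%), beside 6.58% of the 7386. The 4 genes were HNRNPM at -0.43, PRPF38B at -0.24, SF3A1 at -0.15 and LSM7 at -0.14, all within 1.5-fold. The median difference of the 19 genes with the shorter form was -0.24, of which 3 were past 2-fold on the lower side and 0 on the higher side, beside 10.5% and 7.16% of all compared genes with it. That of the 44 genes without it was -0.14, with 3 lower and 3 higher, beside 9.48% and 7.70% of all compared genes without it. Over all compared genes the medians were -0.03 with the shorter form and -0.02 without it. A match is a string of letters and was not tested as a binding site.

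Sm core proteins form the ring around the U1, U2, U4 and U5 RNAs. SNRPD3, which encodes SmD3, was 2.94-fold lower, at 13.1 in siYY1 and 14.7 in siControl (difference -1.56). SNRPF, another ring subunit, was at 10.9 in siYY1 and 11.8 in siControl, a difference of -0.94, just short of 2-fold, and at -1.07 as deposited. The ring was not lower as a whole, since SNRPD1 stood at 12.5 in siYY1 and 12.0 in siControl, a difference of 0.53. The other 4 of the 7 ring genes, SNRPE, SNRPB, SNRPG and SNRPD2, lay between -0.19 and 0.11.

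The 4 SNRP genes for U1 and U2 proteins outside the ring had a median difference of 0.35, beside -0.01 over all genes compared. After centring on medians these were 0.13 and -0.20. Not all U2 proteins outside the ring were higher, since 7 of the 9 SF3A and SF3B genes were below 0. SNRPB2, a U2 protein, had the highest difference at 0.63, with 14.2 in siYY1 and 13.6 in siControl. SNRPA and SNRPC, both of the U1 snRNP, were at 0.37 and 0.33. SNRPA1, the partner of SNRPB2 on the U2 RNA, was at -0.21. None of the 4 passed 2-fold in any of the 4 scalings.

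The SF3A and SF3B complexes hold the U2 snRNP on the branch point. SF3B2 was 2.51-fold lower, at 9.21 in siYY1 and 10.5 in siControl (difference -1.33). SF3B4, which binds SF3B2, was at 13.1 in siYY1 and 14.0 in siControl, a difference of -0.93. It was past 2-fold as deposited, at -1.09. SF3B1, the largest subunit and a frequent site of mutation in blood cancers, was at 10.5 in siYY1 and 11.3 in siControl, a difference of -0.78. These subunits of SF3B all lay on the lower side. SF3B3 was on the other side, at 13.2 in siYY1 and 12.8 in siControl, a difference of 0.41. Of the 9 genes, 7 were below 0 and the median was -0.19, and the 3 SF3A genes and SF3B6 lay between -0.38 and -0.06 with SF3B5 at 0.00144.

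Recognition of the end of the intron involves U2AF1, U2AF2 and SF1. U2AF2, the large subunit that binds the polypyrimidine tract, was at 12.9 in siYY1 and 13.6 in siControl, a difference of -0.74. Its partner U2AF1, which reads the AG at the intron's end, was at 0.10 over 2 probe sets with differences of 0.19 and 0.01. The related U2AF1L4 was at 0.39. SF1, the branch point binding protein, was below the minimum at 7.15 in siYY1 and 7.17 in siControl.

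PRPF genes are named after yeast mutants in pre-mRNA processing. PRPF38A, a protein of the complex before activation, was 2.31-fold lower at 11.9 in siYY1 and 13.1 in siControl (difference -1.21). PRPF4, of the U4/U6 snRNP, was 2.09-fold lower at 11.6 in siYY1 and 12.6 in siControl (difference -1.06). PRPF3, which binds PRPF4 in the same particle, did not share that difference: it was at 12.3 in siYY1 and 12.2 in siControl, a difference of 0.08. The remaining 6 compared PRPF genes lay between -0.28 for PRPF31, mutated in some forms of retinitis pigmentosa, and 0.01 for PRPF39. PRPF19, the ubiquitin ligase at the heart of the complex that bears its name, was at -0.02. With ESS2 counted among the PRPF genes, 3 of the 10 compared (30%) were at least 2-fold lower, beside 9.37% of all genes compared. Below 0 were 8 of the 10, beside 50.4%, and all 10 as deposited, beside 56.8%. PRPF40B was below the minimum, at 6.86 in siYY1 and 6.36 in siControl.

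LSm proteins form a second kind of ring, with LSM2 to LSM8 on U6 RNA in the nucleus and LSM1 in place of LSM8 on messenger RNA bound for decay in the cytoplasm. LSM8 was 2.21-fold higher, at 11.1 in siYY1 and 9.95 in siControl (difference 1.15). LSM1, its cytoplasmic counterpart, was at 10.9 in siYY1 and 11.0 in siControl, a difference of -0.04. LSM5 was at 12.8 in siYY1 and 12.2 in siControl, a difference of 0.68. LSM6 was on the opposite side, at 10.5 in siYY1 and 11.4 in siControl, a difference of -0.96, and past 2-fold as deposited, at -1.11. Subunits of the same ring thus lay on both sides of 0, with LSM4 at -0.54, LSM3 at -0.15 and LSM7 at -0.14. LSM8 was at 1.01 as deposited and at 0.93, under 2-fold, after centring on medians.

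SR proteins carry an RNA recognition motif and a tail rich in arginine and serine, and mostly promote the use of nearby splice sites. SRSF1, the founding member and a known oncogene, was 2.37-fold lower at 14.5 in siYY1 and 15.8 in siControl (difference -1.25). SRSF9, close to SRSF1 in sequence, was 2.03-fold higher at 13.4 in siYY1 and 12.3 in siControl (difference 1.02). These close relatives thus lay on opposite sides of 0. SRSF5 was at 14.2 in siYY1 and 14.8 in siControl, a difference of -0.64. The other 7 compared members, SRSF3, SRSF4, SRSF6, SRSF7, SRSF8, SRSF10 and SRSF11, lay between -0.32 and 0.26. SRSF9 was under 2-fold as deposited, at 0.87, and after centring on medians, at 0.79. SRSF12 was below the minimum.

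Heterogeneous nuclear ribonucleoproteins coat nascent transcripts, and many repress splice sites. Of the role groups with at least 7 genes, theirs was the most even: 18 of the 20 compared were within 1.5-fold and the SD of the differences was 0.37. HNRNPL, which binds CA-rich RNA, was 2.04-fold higher at 13.4 in siYY1 and 12.4 in siControl (difference 1.03). It was under 2-fold as deposited, at 0.88, and after centring on medians, at 0.81. HNRNPLL, its paralog, was at 11.0 in siYY1 and 11.3 in siControl, a difference of -0.25. HNRNPUL2 had the lowest difference at -0.84, with 11.6 in siYY1 and 12.4 in siControl. The readthrough transcript HNRNPUL2-BSCL2, a noncoding entry left out of the comparison, was at -0.97. Its probe set can share signal with HNRNPUL2.

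The hnRNPs best known for opposing SR proteins were within 1.5-fold on the 2 arrays in the main scaling. HNRNPA1 was at 16.3 in siYY1 and 16.6 in siControl, a difference of -0.24, and HNRNPA2B1 at 0.12. HNRNPH1 was at -0.26, HNRNPF at -0.45 and HNRNPH3 at 0.33. After centring on medians HNRNPF was past 1.5-fold, at -0.66. HNRNPM, a regulator of exon skipping, was at -0.43, HNRNPU at -0.13 and HNRNPC at 0.06. The other 7 compared, HNRNPUL1, HNRNPR, HNRNPA0, HNRNPH2, HNRNPDL, HNRNPAB and HNRNPD, lay between -0.26 and 0.15. HNRNPA1L2 and HNRNPCL1 are near copies of HNRNPA1 and HNRNPC, so their values of -0.38 and -0.30 are uncertain as single genes. The further copies HNRNPCL2 and HNRNPCL4 were below the minimum, as was the pseudogene SNRPD2P2.

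**Figure D2:**
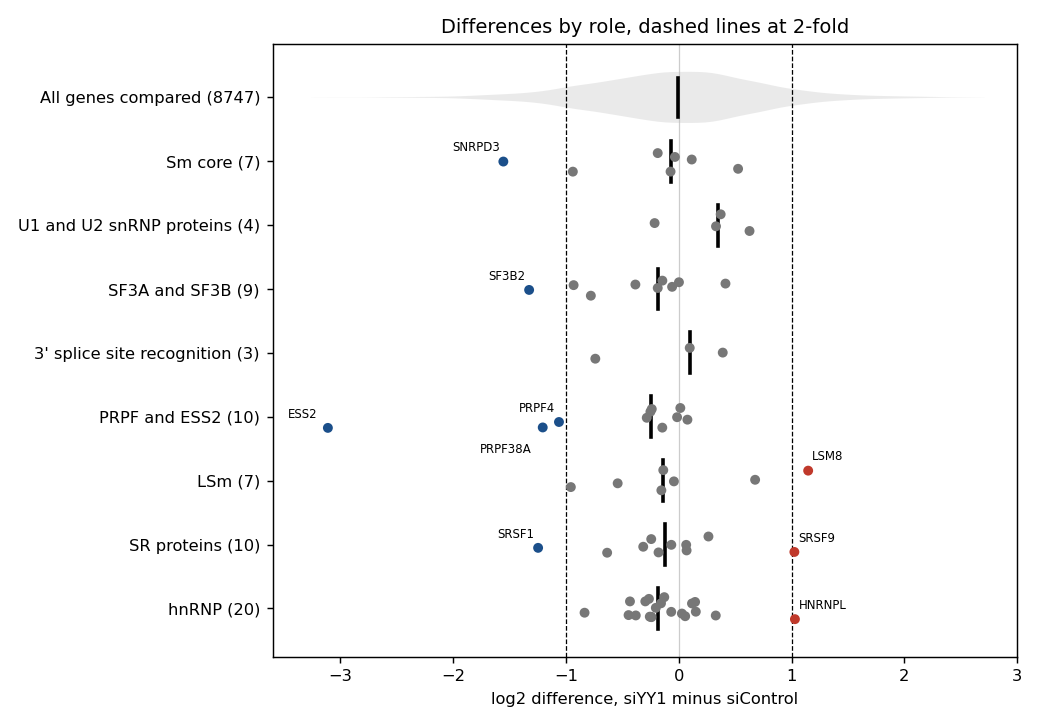
Log2 difference, siYY1 minus siControl, of the 70 compared genes by role, with 1 point per gene, a black bar at each median and the distribution of all 8747 compared genes as a grey shape. The 6 genes at least 2-fold lower and the 3 at least 2-fold higher are named and come from 6 of the 8 roles.

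The call at 2-fold depended on the scaling for genes near it. The 6 lower genes, ESS2, SNRPD3, SF3B2, SRSF1, PRPF38A and PRPF4, were past 2-fold in all 4 scalings. Of the 3 higher genes, LSM8 passed in 3 of the 4 scalings, and HNRNPL and SRSF9 passed in 2. LSM6, SNRPF and SF3B4 were past 2-fold as deposited and after centring, and HNRNPUL2 after centring, at -1.04. All 13 genes kept their sign.

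**Figure D3:**
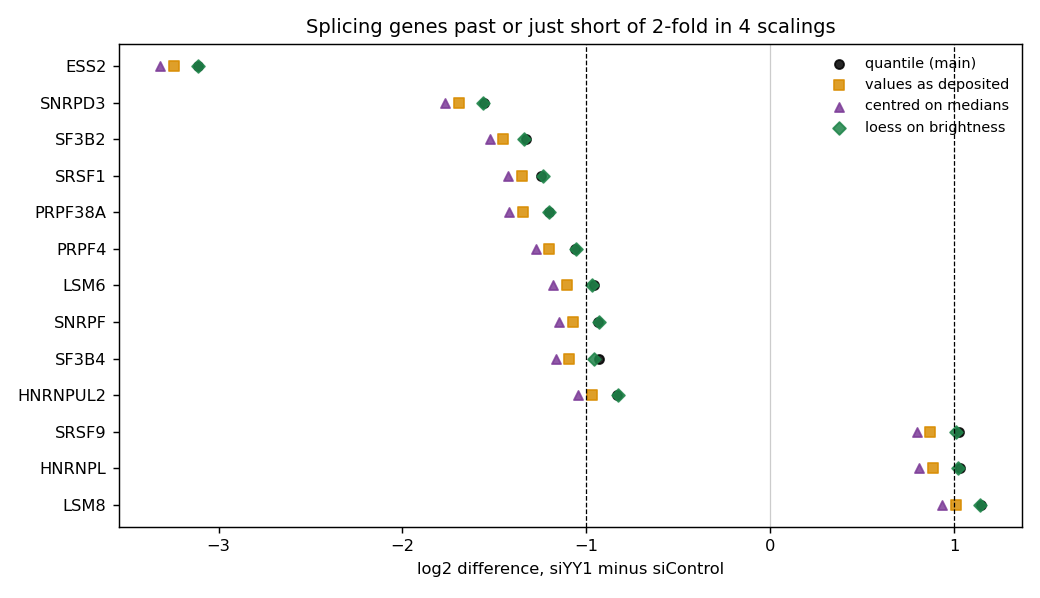
Log2 difference, siYY1 minus siControl, of the 9 genes past 2-fold and the 4 nearest to it, in 4 scalings of the arrays. The points of each gene lie within a narrow band, and the bands of HNRNPL, SRSF9, LSM8, LSM6, SNRPF, SF3B4 and HNRNPUL2 cross a dashed line at 2-fold.

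Several of these genes share a short stretch of DNA with a neighbour that starts in the opposite direction. Head-to-head starts at most 1000 bases apart were found for 18 pairs of a splicing gene and a neighbour, and both genes were compared in 13. PRPF4 and CDC26, a subunit of the anaphase-promoting complex, start 86 bases apart. PRPF4 was at -1.06 and CDC26 at 0.44, with 10.4 in siYY1 and 9.94 in siControl. SRSF9 and DYNLL1, a dynein light chain, start 94 bases apart, and were at 1.02 and -0.12.

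PRPF38A and ORC1, which marks replication origins, start 179 bases apart, and were at -1.21 and -0.08. SNRPD3 and GUCD1 start 512 bases apart, and were at -1.56 and -0.18. In none of these 4 pairs did the neighbour come near 2-fold. HNRNPA2B1 and CBX3, which encodes a heterochromatin protein, start 697 bases apart, and were at 0.12 and -0.68. Both genes of a pair had the same sign in 4 of the 13 pairs (30.8%), beside 47.8% of 492 head-to-head pairs among all compared genes. That count moved with the scaling, to 6 pairs as deposited and 7 after centring on medians, where the shares of all pairs were 51.2% and 56.9%.

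**Figure D4:**
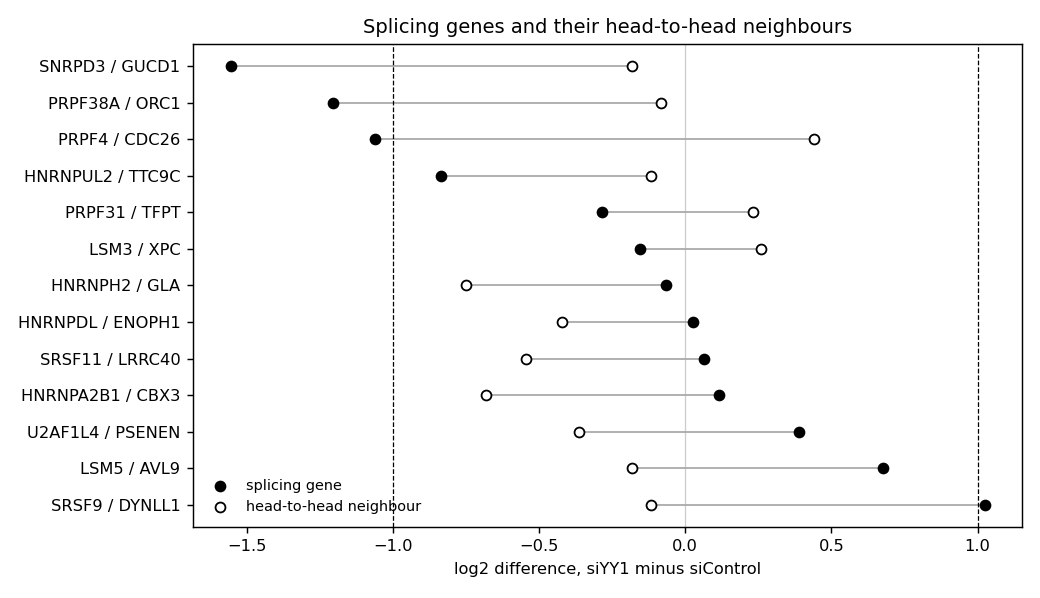
Log2 difference, siYY1 minus siControl, of 13 splicing genes (filled) and their head-to-head neighbours (open), sorted by the splicing gene. The neighbours lie between -0.75 and 0.44, and 4 pairs lie on 1 side of 0, or 7 after centring on medians.

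Differences of the splicing genes had little relation to gene span or brightness. Across the 70 genes, the difference against the logarithm of the genomic span gave a Pearson r of -0.06 and a Spearman rho of -0.14, beside 0.09 and 0.09 over all 8747. Against the mean log2 value they were 0.09 and 0.06. Genes on the same 2 arrays are not independent replicates.

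Other genes of splicing outside these families were spread more like genes at large. Of 149 listed, 131 were named and 125 compared, with a median difference of -0.01. The lists were drawn up with earlier results of these data known. At least 2-fold higher were 6 (4.80%) and at least 2-fold lower 11 (8.80%), both below the shares of all genes in the main scaling. As deposited, 5 of the 125 were higher and 16 lower, beside 6.13% and 12.2% of all genes. After centring on medians these were 4 and 19, beside 5.03% and 14.3%. The lower share was thus slightly above the background in those 2 scalings. Within 1.5-fold were 60.8%, beside 58.8% of all genes and 74.3% of the families above. The SD of their differences was 0.68, beside 0.63 for the families above, or 0.53 without ESS2. The difference between these sets was not tested. The U5 snRNP had members on both sides. SNRNP200, the helicase that unwinds U4 from U6, was 2.82-fold higher at 14.2 in siYY1 and 12.7 in siControl. EFTUD2, the GTPase of the same particle, was 2.37-fold lower at 11.2 in siYY1 and 12.5 in siControl, and SNRNP40 was at 1.24. SART1 and SART3, which act in tri-snRNP assembly and recycling, were at -1.22 and -1.10, and the U2-associated CHERP was at 1.15, or 0.98 after centring on medians.

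Factors that load Sm rings onto snRNAs, or carry the particles to and from the nucleus, were mostly below 0. Of the 14 compared, 12 (85.7%) were below 0, beside 50.4% of all genes compared, and the median was -0.56. GEMIN2, at 6.63 in siYY1 and 7.56 in siControl, reached the minimum only in siControl. Its side of 0 was thus set by the filter, though it is among the 12. PRMT5, which methylates Sm proteins before assembly, was 2.48-fold lower at 12.4 in siYY1 and 13.7 in siControl. GEMIN5, which recognises the snRNA, was 2.39-fold lower at 10.7 in siYY1 and 12.0 in siControl. PHAX, an snRNA export factor, was at -0.99 and GEMIN6 at -0.97, both past 2-fold as deposited, at -1.14 and -1.07, while STRAP was at 0.50. Set against the median of all genes, the median of this list was -0.55 in each of the 4 scalings.

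Kinases that phosphorylate SR proteins were below 0 in all 6 compared, beside 50.4% of all genes compared. SRPK1 was 2.91-fold lower at 10.2 in siYY1 and 11.7 in siControl (difference -1.54). SRPK2 was at 6.49 in siYY1, below the minimum, and 7.55 in siControl, a difference of -1.06. It entered the comparison only through siControl, so its side of 0 was set by the filter. CLK1 and SRPK3, below the minimum on both arrays and not compared, were at -0.73 and 0.17. CLK2 was at -0.90, or past 2-fold as deposited at -1.04, CLK3 at -0.58, CLK4 at -0.40 and DYRK1A at -0.36. Exon junction complex genes lay mostly above 0, with 7 of 8 and a median of 0.36, from PNN at -0.29 to ACIN1 at 0.66. Below 0 were 12.5% of them, beside 50.4% of all genes compared, and none passed 2-fold. As deposited, 6 of the 8 were above 0, while 56.8% of all genes were below it.

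Among later spliceosome proteins, MFAP1 was 3.74-fold lower at 8.08 in siYY1 and 9.98 in siControl. PLRG1, a subunit of the PRPF19 complex, was at -1.22. The helicase DHX38 was at 1.04, and under 2-fold in the other 3 scalings, between 0.92 and 0.999. The median of the 31 genes of this list was 0.04, and -0.11 as deposited. Of 33 other regulators, TIAL1 was at 1.54 and MBNL2 at 1.40, while RBM14 was at -1.50 and RBM25 at -1.01. Their median was 0.10, and -0.04 as deposited. Set against the median of all genes, the later proteins were at 0.05 and the regulators at 0.11. As deposited they were at 0.02 and 0.09. None of the 9 minor spliceosome genes passed 2-fold in the main scaling, and TXNL4B, at -0.87, passed it after centring on medians, at -1.07. Of the 17 other splicing genes past 2-fold, 15 were so in all 4 scalings, and 8 more were past it in 1 or 2 of the other scalings.

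**Figure D5:**
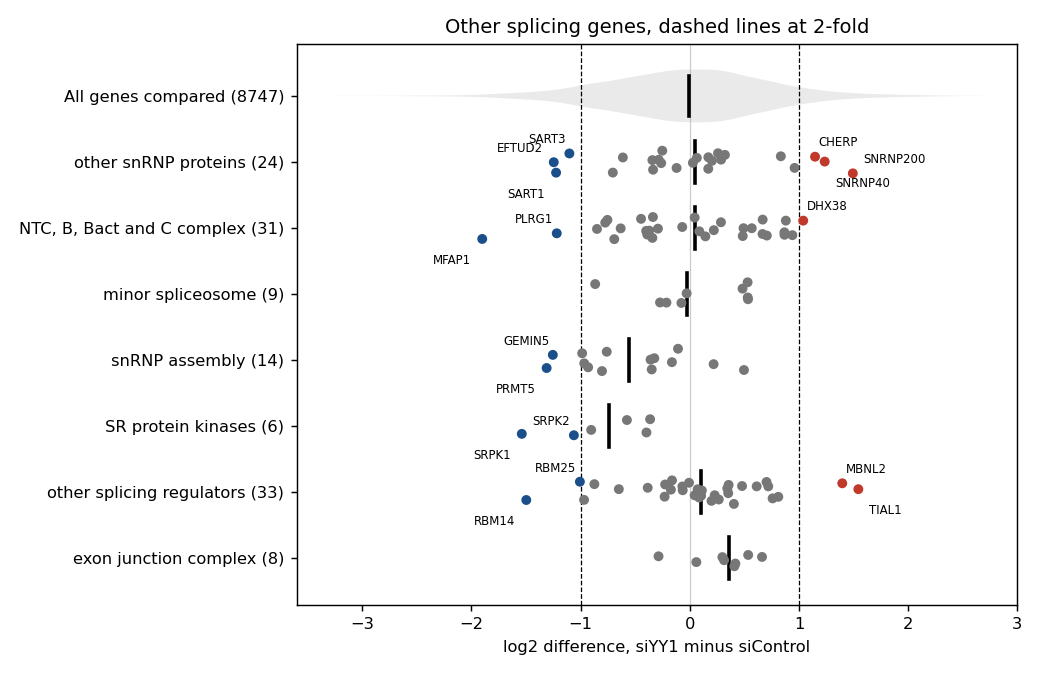
Log2 difference, siYY1 minus siControl, of the 125 other splicing genes compared, by list, with 1 point per gene, a black bar at each median and all 8747 compared genes as a grey shape. Points of the SR protein kinases all lie left of 0, and 7 of 8 exon junction complex genes lie right of it (6 of 8 as deposited). SRPK2 and GEMIN2 reached the brightness minimum only in siControl, so their side of 0 was set by the filter.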

How the data were processed

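The authors deposited 1 log2 expression value per probe set for each of 2 whole-transcript GeneChip arrays of biotin-labelled cDNA, per the labels' protocols. Details of background correction and normalization were not given in the sources used here. In this table the log2 scale is inferred from the values. The deposited medians were 6.93 in siYY1 and 6.86 in siControl, and the 75th percentile differed by -0.13, so the pair was quantile normalized over all 21448 probe sets. A platform annotation named 17709 probe sets, and all 17687 genes matched RefSeq (GRCh38.p14) by gene ID. Probe sets of a gene were averaged.

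Genes were counted by size at 2-fold, with no test, since each group was 1 array. All genes compared served as background. Named genes were those past 2-fold, the extremes of each role and, beyond that rule, most remaining splicing genes. For the other splicing genes they were at most 4 per list and direction past 2-fold, with others named after their values were seen. Members, roles and lists were chosen with earlier results of these data known. Protein identity was not computed. Counting was tested on simulated data. Alternatives were other scalings, brightness filters, probe set rules, gene types and thresholds. Tools were pandas 2.3.3 and numpy 2.4.6 for tables, statsmodels 0.14.6 for loess, scipy 1.17.1 for correlations and matplotlib 3.10.9 for plots, under Python 3.11.15.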

Additional observations from a re-analysis of the deposited data

How the results depend on the processing

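Of the counts and medians, those of the splicing genes kept within 1.5 times, or within 0.1 for the median, under loess, other brightness filters, the brightest probe set and all gene types. As deposited, 1 splicing gene was at least 2-fold higher and the median was -0.30. After centring on medians these were 0 and -0.37, with 10 lower, beside 5.03% higher, 14.3% lower and a median of -0.20 over all genes. For the other splicing genes the medians were -0.13 as deposited and -0.21 after centring, with 19 lower after centring, and the sign turned to 0.060 with genes past the 75th percentile of brightness, where fewer genes were compared. At 1.5-fold, 5 splicing genes were higher and 13 lower, and 21 and 28 of the other splicing genes, beside 19.4% and 21.8% of all genes. At 3-fold, 0 were higher and 1 lower in both sets, beside 1.89% and 2.44%. Leaving out ESS2, a choice made after seeing the data, left 3 higher, 5 lower and a median of -0.15. No paired analysis was possible because each group was 1 array. The number of arrays limits precision.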
